A study of Mus musculus with 8 samples.

Results

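The genes described here are the satellite cell and myogenic factor genes of mouse quadriceps muscle. They are the 9 of the 47643 genes in the deposited table whose symbol is *Pax7*, *Myf5*, *Myod1*, *Myog*, *Myf6*, *Megf10*, *Calcr*, *Hey1* or *Heyl*, and each symbol matched 1 row. Each genotype, Nup210+/+ and Nup210-/- by the labels, was represented by 4 mice of strain C57BL/6, and each mouse gave 1 RNA-seq library. The Nup210-/- line is a constitutive knockout, in which a floxed exon 2 of *Nup210* was removed by Hprt-Cre, so every cell type of the muscle carries the deletion. *Nup210* encodes a transmembrane protein of the nuclear pore. The sources used here give neither age nor sex for these mice, and name no injury or treatment for them. The study also examined whether satellite cells that lack Nup210 can still form muscle, and the comparison here asks how their genes compare between genotypes in whole quadriceps.

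Satellite cells are the stem cells of skeletal muscle and lie between the fiber and its basal lamina. Pax7 marks them while they are quiescent. After damage they divide and switch on the myogenic regulatory factors, basic helix-loop-helix proteins that bind the E-box motif as dimers with E proteins. Myf5 and MyoD (encoded by *Myod1*) act in the dividing myoblast, myogenin (*Myog*) in its differentiation, and Mrf4 (*Myf6*) mainly in the mature fiber. Notch signaling holds satellite cells in quiescence, with *Hey1* and *Heyl* among its targets, and these targets are also used by cells of blood vessels. The calcitonin receptor (*Calcr*) and Megf10 are surface proteins of satellite cells.

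Values are TPM (transcripts per 1000000), which account for transcript length, so levels of different genes can be compared. For tests, TPM were divided by a factor for each library (0.936 to 1.12, a median of ratios over genes seen in all libraries), and log2(scaled TPM + 1) was fitted with limma for the 14229 genes whose mean reached 0.5 TPM. A log2 fold change is Nup210-/- minus Nup210+/+ on that scale and understates the change of genes near 1 TPM. *Nup210* itself was at 8.81 to 11.93 TPM in the libraries labelled Nup210-/- and at 5.71 to 10.11 TPM in those labelled Nup210+/+ (limma adjusted p = 0.231). A value per gene does not show whether exon 2 was present, so this is no check of the labels, and all directions below rest on them. All 9 fiber genes examined, such as *Acta1* and *Ckm*, were above 0 in every library, with a summed level of 90543 to 104564 TPM. Nup210+/+ replicate 2 stood apart: the summed level of 6 genes of granulocyte precursors was 381.69 TPM there and at most 2.12 TPM in the other 7 libraries, and that of 8 proliferation genes was 63.7 TPM against 2.28 to 3.98 TPM.

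Promoter sequences are printed for 2 of the genes. *Myog* is a textbook target of MyoD and Mef2 factors, and its promoter is shown because *Myod1* and *Myog* had the lowest ratios between genotypes of the 9 genes. *Myf5* is shown beside it as the factor of the earlier, dividing stage. Each is the 250 bases before the RefSeq start on GRCm38.p6, 5′ to 3′ on the strand of the gene, with E-boxes (CANNTG, which reads the same on both strands) in capitals. The *Myog* sequence is at chr1:134289754-134290003 on the plus strand, and the *Myf5* sequence at chr10:107486135-107486384 on the minus strand.
Myog: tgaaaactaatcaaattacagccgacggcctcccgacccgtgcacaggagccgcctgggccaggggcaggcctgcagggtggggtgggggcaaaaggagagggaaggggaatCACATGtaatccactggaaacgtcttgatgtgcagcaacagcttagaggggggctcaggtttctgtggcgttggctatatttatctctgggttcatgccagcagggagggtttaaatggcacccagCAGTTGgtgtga
Myf5: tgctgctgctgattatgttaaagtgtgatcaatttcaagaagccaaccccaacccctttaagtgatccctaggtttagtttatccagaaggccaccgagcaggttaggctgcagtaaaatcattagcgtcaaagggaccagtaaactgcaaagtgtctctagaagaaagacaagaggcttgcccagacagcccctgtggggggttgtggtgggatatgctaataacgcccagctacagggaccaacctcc
The *Myog* promoter holds 2 E-boxes, CACATG starting 138 bases and CAGTTG starting 12 bases before the RefSeq start. GENCODE places the start of *Myog* at 134289989, inside this window, so by GENCODE the CAGTTG lies within the gene. At least 1 E-box was found in 66.2% of 32851 promoter windows of the same length and at least 2 in 31.8%, so these letters are common. The *Myf5* window holds none, which says only that the letters are not in these 250 bases. Of the 9 genes, 4 had a promoter in the RefSeq table.

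The 9 genes differed widely in level. *Myf6* stood first, with a mean over the 8 libraries of 94.4 TPM, a level above that of 93.2% of the genes tested. *Myod1* followed at 15.1 TPM and *Myog* at 5.79 TPM. *Heyl* at 1.99 TPM and *Hey1* at 1.72 TPM came next, then *Myf5* at 0.975 TPM and *Pax7* at 0.814 TPM. *Megf10* (0.375 TPM) and *Calcr* (0.220 TPM) were lowest, under the minimum of 0.5 TPM, so 7 of the 9 genes entered the limma fit. The ranges of *Myf6*, *Myod1*, *Myog* and *Heyl* did not overlap one another. *Heyl* and *Hey1* overlapped, although *Heyl* was above *Hey1* within each of the 8 libraries. *Hey1* lay above *Myf5* without overlap (lowest 1.48 against highest 1.43 TPM). *Myf5* and *Pax7* were not separated beyond their spread, with *Myf5* the higher in 6 of 8 libraries, and the ranges of *Pax7* and *Megf10* and of *Megf10* and *Calcr* also overlapped.

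**Figure D1:**
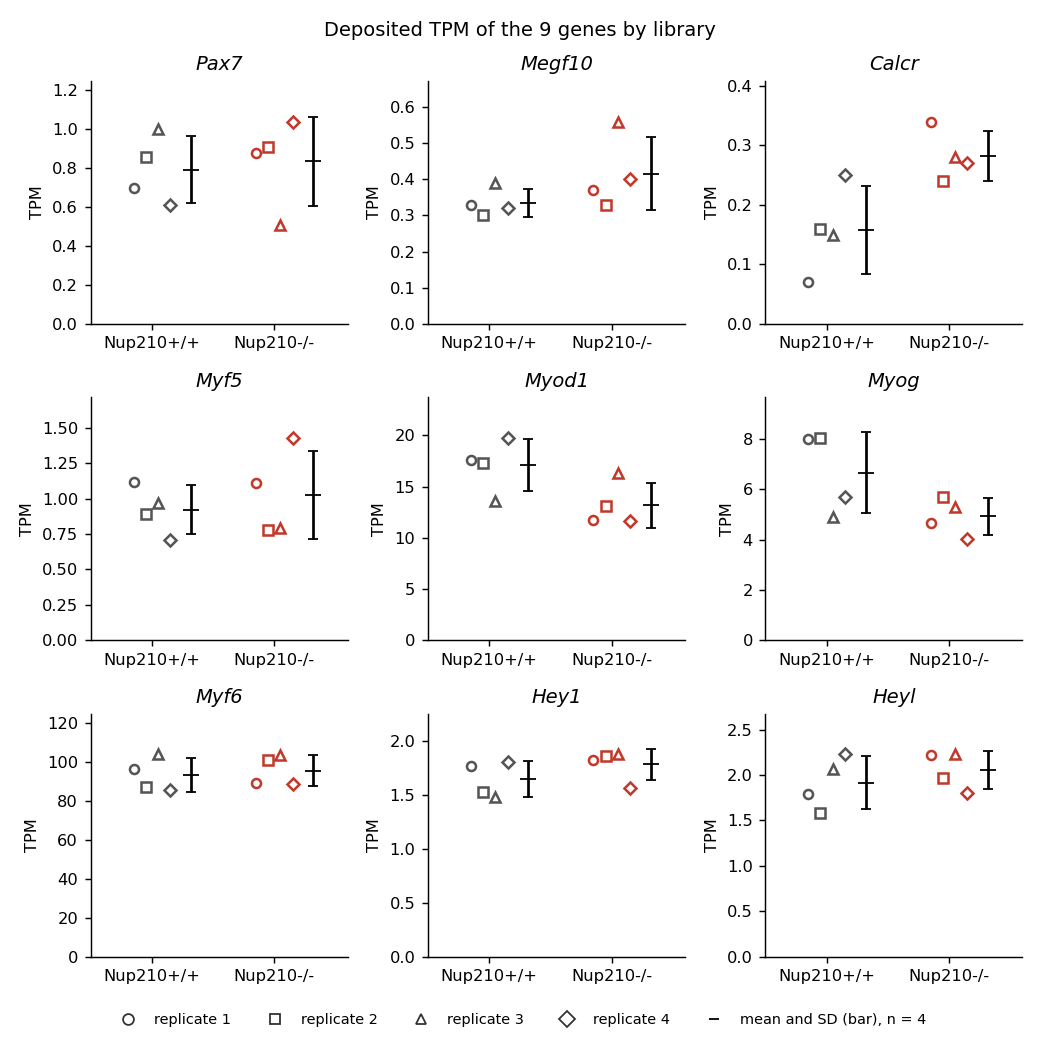
Deposited TPM (vertical axes, from 0) of the 9 genes in the 4 libraries labelled Nup210+/+ (grey) and the 4 labelled Nup210-/- (red). Symbols give the replicate, and the bar beside each group is the mean with its SD (n = 4). In these deposited values the genotypes overlapped in all 9 genes. *Calcr* and *Myod1* came closest to separation, each with 1 of 16 pairs of libraries against the direction of the means.

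None of the 9 genes differed between genotypes past the threshold. By limma, with p-values adjusted over all genes after Benjamini and Hochberg and a threshold of 0.05, 0 of the 7 genes tested passed. Of all 14229 genes 16 (0.112%) passed, 0.0492% as higher and 0.0633% as lower in Nup210-/-. At an unadjusted p of 0.05, 0 of 7 passed as well, against 14.2% of all genes tested, of which 7.18% were lower. The lowest adjusted p of the 7 was 0.362, for *Myf6*. By point estimate *Myod1* and *Myog* were lower and the other 5 higher, with a median log2 fold change of 0.12 against −0.01 over all genes tested. On this scale the intervals of *Pax7*, *Myf5*, *Myf6*, *Hey1* and *Heyl* stayed within 1.5-fold, while those of *Myod1* and *Myog* reached past it on the lower side. With a pseudocount of 0.1 in place of 1 and no filter on low values, a fit chosen after the data were seen, the upper limits of the genes near 1 to 2 TPM lay past 1.5-fold, at 0.82 for *Pax7*, 0.86 for *Myf5*, 0.62 for *Hey1* and 0.61 for *Heyl*, so a higher level of that size is not excluded for them.

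**Figure D2:**
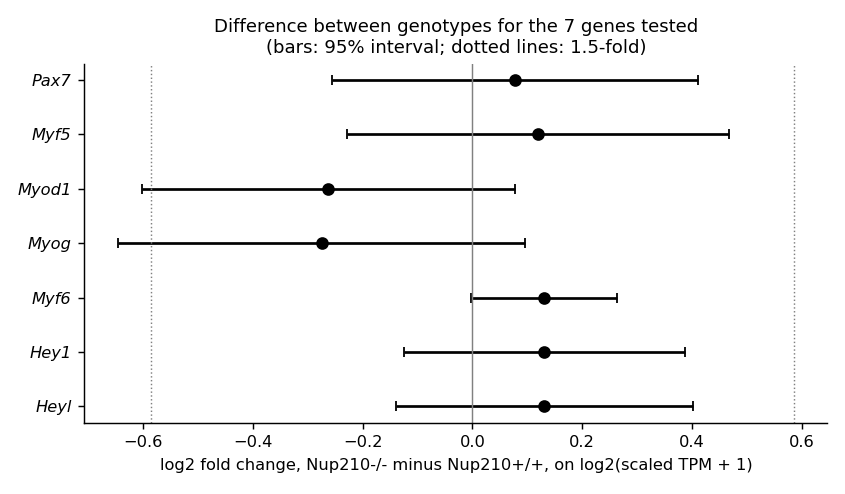
Log2 fold change (Nup210-/- minus Nup210+/+, horizontal axis, on log2(scaled TPM + 1)) of the 7 genes tested with limma, with 95% intervals. Dotted lines mark 1.5-fold. All 7 intervals include 0, and that of *Myf6* is the narrowest, from −0.003 to 0.262.

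*Pax7* (chromosome 4, 139737062 to 139833528, minus strand of GRCm38), the transcription factor that defines the satellite cell, measured 0.88, 0.91, 0.51 and 1.04 TPM in Nup210-/- replicates 1 to 4. In those labelled Nup210+/+ it was at 0.70, 0.86, 1.00 and 0.61 TPM. The genotypes overlapped throughout, and the lowest value of all was Nup210-/- replicate 3. The means were 0.835 ± 0.228 and 0.793 ± 0.173 TPM (SD, n = 4). The log2 fold change was 0.08 (95% interval −0.26 to 0.41, limma adjusted p = 0.838). The exact permutation test over the 70 labelings gave p = 0.83 on TPM. In whole muscle the number of cells that express a gene and its RNA per cell cannot be told apart, for *Pax7* or the others. With the pseudocount of 0.1 and no filter, the 95% interval widened to −0.55 to 0.82.

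*Megf10*, an EGF-repeat receptor that acts with Notch in satellite cells, was at 0.37, 0.33, 0.56 and 0.40 TPM in Nup210-/- and at 0.33, 0.30, 0.39 and 0.32 TPM in Nup210+/+ replicates 1 to 4. Its highest value was Nup210-/- replicate 3, the library in which *Pax7* was lowest, and the other values of the genotypes overlapped. The ratio of mean TPM was 1.24 (exact permutation test, p = 0.171).

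*Calcr*, a receptor that keeps satellite cells quiescent, was at 0.34, 0.24, 0.28 and 0.27 TPM in Nup210-/- (0.283 ± 0.0419, SD, n = 4). In Nup210+/+ replicates 1 to 4 it was at 0.07, 0.16, 0.15 and 0.25 TPM (0.158 ± 0.0737, SD, n = 4). In 15 of the 16 pairs of libraries the Nup210-/- value was the higher, and Nup210+/+ replicate 4 made the overlap. The ratio of mean TPM, 1.79, was the highest of the 9 genes, with an exact permutation p of 0.0571 on TPM (adjusted over the 24374 genes above 0, p = 0.589). Without Nup210+/+ replicate 4 the exact permutation p was 0.0286, the smallest that 4 against 3 allows. As that library made the overlap, a low p after leaving it out adds no support. In the fit without the filter on low values the log2 fold change was 0.16 (limma adjusted p = 0.423). With a pseudocount of 0.1 as well, chosen after the data were seen, the log2 fold change of *Calcr* was 0.67 (95% interval −0.09 to 1.43, limma adjusted p = 0.544). The means differed by 0.125 TPM in a table with 2 decimals, and the reads behind these values are unknown.

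The 4 myogenic regulatory factors were dominated by *Myf6*. Their summed level was 114.7 ± 10.2 TPM in Nup210-/- against 117.9 ± 6.18 TPM for Nup210+/+ (SD, n = 4), of which *Myf6* took 82.2 to 83.8% in the libraries labelled Nup210-/- and 76.6 to 84.2% in those labelled Nup210+/+. *Myod1* took 10.9 to 12.9% and 11.0 to 17.7%, *Myog* 3.82 to 4.72% and 3.97 to 7.08%, and *Myf5* 0.626 to 1.35% and 0.636 to 0.911%. The SD of the share was larger among the Nup210+/+ mice for *Myf6*, *Myod1* and *Myog*, and larger among the Nup210-/- mice for *Myf5*. Nup210+/+ replicate 3 held shares like those of the Nup210-/- libraries, and the other 3 held less *Myf6* and more *Myod1* than it did. *Myf5* and *Myf6* are neighbors on the minus strand of chromosome 10 (107482908 to 107486134 and 107492853 to 107494737) of GRCm38, with 6718 bases between them.

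**Figure D3:**
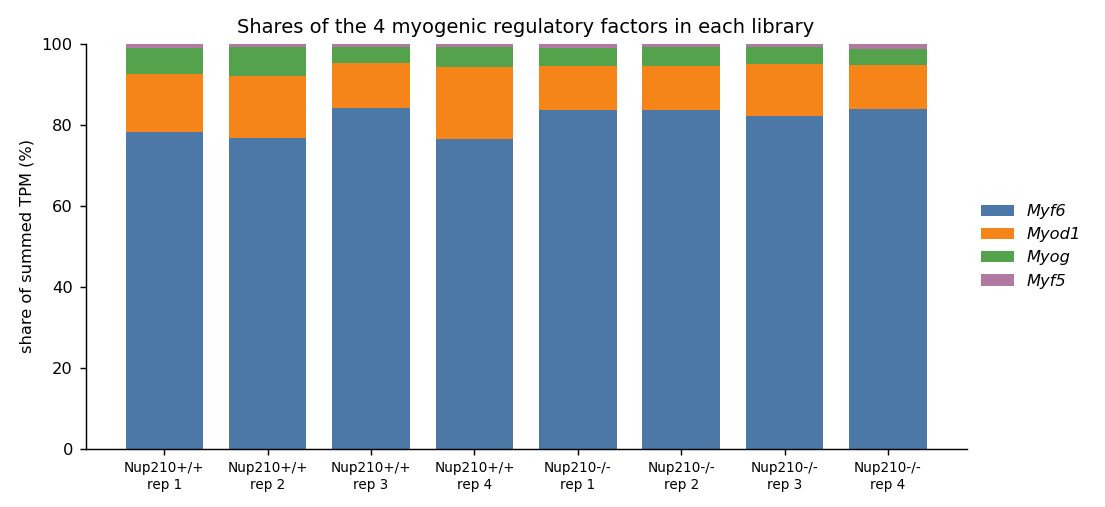
Share of the summed TPM of the 4 myogenic regulatory factors (vertical axis, percent) taken by *Myf6*, *Myod1*, *Myog* and *Myf5* in each of the 8 libraries. *Myf6* takes 76.6 to 84.2% everywhere, with its 3 lowest shares in Nup210+/+ replicates 1, 2 and 4.

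*Myod1* (chromosome 7, 46376474 to 46379099) measured 11.74, 13.09, 16.31 and 11.62 TPM in Nup210-/- replicates 1 to 4, and 17.56, 17.35, 13.64 and 19.77 TPM in the libraries labelled Nup210+/+. In deposited TPM Nup210-/- was the higher in 1 of the 16 pairs of libraries, Nup210-/- replicate 3 against Nup210+/+ replicate 3. In scaled TPM the overlap was wider: Nup210+/+ replicate 3, at 12.1, lay below every Nup210-/- library (12.4 to 16.2). The means were 13.2 ± 2.18 and 17.1 ± 2.54 TPM (SD, n = 4), a ratio of 0.772. The log2 fold change was −0.26 (SE 0.150; limma, adjusted p = 0.451), with an exact permutation p of 0.0571 on TPM and of 0.2 on scaled TPM. The difference depended on single mice: without Nup210+/+ replicate 3 the log2 fold change was −0.40 and without Nup210+/+ replicate 4 it was −0.16.

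*Myog* (chromosome 1, 134289989 to 134292548), whose promoter is printed above, measured 4.65, 5.69, 5.30 and 4.04 TPM in Nup210-/- replicates 1 to 4, and 7.99, 8.04, 4.90 and 5.67 TPM in those labelled Nup210+/+. Nup210+/+ replicates 1 and 2 were high, while replicates 3 and 4 lay within the Nup210-/- range. The means were 4.92 ± 0.727 and 6.65 ± 1.61 TPM (SD, n = 4), a ratio of 0.740. The log2 fold change was −0.27 (SE 0.164; limma, adjusted p = 0.470; exact permutation test, p = 0.143). Without Nup210+/+ replicate 2, the library with the granulocyte precursor genes, the log2 fold change was −0.19, as it was without Nup210+/+ replicate 1, and without Nup210+/+ replicate 3 it was −0.42. The ratio of *Myod1* to *Myog* came to 2.69 ± 0.348 in Nup210-/- against 2.66 ± 0.623 for Nup210+/+ (SD, n = 4). Genes of the fusing and immature fiber, which follow these factors in regeneration, are described with the related lists below.

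*Myf6* measured 89.02, 100.88, 103.74 and 88.67 TPM in Nup210-/- replicates 1 to 4, and 96.25, 87.22, 104.03 and 85.57 TPM in those labelled Nup210+/+. As deposited, the genotypes overlapped almost fully (95.6 ± 7.86 and 93.3 ± 8.57 TPM, SD, n = 4; exact permutation test, p = 0.657). After scaling the libraries, *Myf6* was at 94.1, 102, 103 and 94.7 in Nup210-/- and at 93.7, 84.2, 92.6 and 89.7 in Nup210+/+. The genotypes then no longer overlapped, by a margin of less than 1 TPM, and the exact permutation test gave its smallest possible p, 0.0286. Scaled values did not overlap, with Nup210-/- the higher, in 4.78% of all genes tested, against 4.6% with it the lower and 9.38% in all. *Myf6* was the only one of the 9 genes of that kind, and none of the 9 was without overlap in deposited TPM, as 8.41% of all genes tested were, 6.87% with Nup210-/- the lower. The log2 fold change was 0.13 (SE 0.0588; limma, adjusted p = 0.362), and 0.04 with TPM as deposited. The spread of *Myf6* within genotypes, an SD of 0.0694 on the log2 scale, was among the lowest 5.36% of the genes tested. Beside it, the summed level of the 9 fiber genes was 97731 to 104564 TPM in Nup210-/- against 90543 to 96928 TPM in Nup210+/+, and all 9 had a higher estimate in Nup210-/-, though none passed limma at an adjusted p of 0.05 and 3 had an unadjusted p under 0.05. Their part in the *Myf6* difference was not tested.

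**Figure D4:**
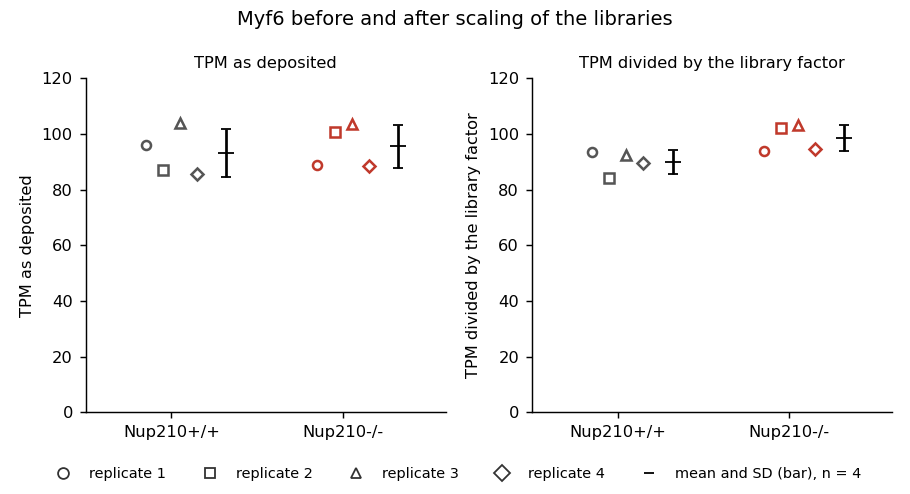
*Myf6* in the 8 libraries as deposited TPM (left) and after division by the factor of each library (right), both from 0, with replicate symbols and mean with SD (n = 4). On the left the genotypes overlap, and on the right the lowest Nup210-/- value (94.1) lies just above the highest Nup210+/+ value (93.7).

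*Myf5*, the other factor of the undifferentiated cell, was at 1.11, 0.78, 0.79 and 1.43 TPM in Nup210-/- and at 1.12, 0.89, 0.97 and 0.71 TPM in Nup210+/+ replicates 1 to 4. The genotypes overlapped, with Nup210-/- replicate 4 highest and Nup210+/+ replicate 4 lowest. The log2 fold change was 0.12 (95% interval −0.23 to 0.47, limma adjusted p = 0.756), and 0.02 without Nup210-/- replicate 4. That mouse also had the highest *Pax7* value, and *Pax7* and *Myf5* together averaged 1.86 ± 0.494 TPM in Nup210-/- against 1.72 ± 0.279 TPM for Nup210+/+ (SD, n = 4).

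The Notch targets *Hey1* and *Heyl*, which encode bHLH repressors, had higher estimates in Nup210-/-, and neither passed the threshold. *Hey1* (chromosome 3, 8663359 to 8667256) was at 1.83, 1.86, 1.88 and 1.57 TPM in Nup210-/- and at 1.77, 1.53, 1.48 and 1.81 TPM in Nup210+/+ replicates 1 to 4. *Heyl* (chromosome 4, 123233556 to 123249875) was at 2.22, 1.97, 2.23 and 1.80 TPM and at 1.79, 1.58, 2.07 and 2.23 TPM. For both genes the genotypes overlapped, and Nup210-/- replicate 4 was the lowest of its genotype. Each had a log2 fold change of 0.13, with 95% intervals of −0.13 to 0.39 for *Hey1* and −0.14 to 0.40 for *Heyl* (limma adjusted p = 0.622 and 0.641). The ratio of *Heyl* to *Hey1* came to 1.15 ± 0.0672 in Nup210-/- against 1.17 ± 0.183 for Nup210+/+ (SD, n = 4). Vessel cells also use these genes. The summed level of 8 endothelial markers was 118.7 to 128.6 TPM in Nup210-/- and 112.1 to 135.2 TPM in Nup210+/+, and that of 7 mural cell markers 190.6 to 211.5 and 200.8 to 252.4 TPM, with all of these markers above 0 in every library. Their part in the levels of *Hey1* and *Heyl* was not tested.

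Related genes were read from 4 lists. At an adjusted p of 0.05, 0 of the 67 list genes tested passed limma in either direction, and 13 had an unadjusted p under 0.05. By list that share was 35.7% (satellite cell genes), 21.1% (partners and regulators), 9.52% (Notch pathway) and 15.4% (fusion and immature fiber). Over all genes tested it was 14.2%.

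Of 16 other genes of satellite cells, 14 were tested, 7 with a higher and 7 with a lower estimate in Nup210-/- (4 and 10 with TPM as deposited). With TPM as deposited the median log2 fold change over all genes tested was itself lower, −0.08 against −0.01 in the main fit. An unadjusted p under 0.05 was found for 5 of the 14 satellite cell genes, or 35.7%, against 14.2% of all genes tested. Of these 5, 3 were higher and 2 lower. *Cdh15*, the M-cadherin of the satellite cell niche, had the highest estimate, 0.33 (10.4 ± 1.00 TPM in Nup210-/- against 8.56 ± 0.676 TPM for Nup210+/+, SD, n = 4; limma adjusted p = 0.172), and *Fgfr1*, a growth factor receptor, followed at 0.26. *Vcam1* (0.24) and *Itga7* (0.21), 2 further surface proteins named after their values were seen, also had an unadjusted p under 0.05. In scaled TPM *Cdh15*, *Vcam1* and *Itga7* did not overlap between genotypes, and in deposited TPM they did. Of all genes tested, 9.38% did not overlap in scaled TPM (4.78% with Nup210-/- the higher) and 8.41% in deposited TPM. *Cdh15*, *Vcam1* and *Itga7* averaged 9.46, 3.42 and 19.8 TPM over all libraries, against 0.814 TPM for *Pax7*. All 9 fiber genes examined above also had a higher estimate in Nup210-/-. The part of fibers or other cells in the differences of *Cdh15*, *Vcam1* and *Itga7* was not tested. At the other end stood the chemokine receptor *Cxcr4* (−0.47), which was at 7.19 TPM in Nup210+/+ replicate 2 and at 1.35 to 2.40 TPM in the other 7 libraries, and *Cd34* (−0.43). *Cd34*, a surface sialomucin, averaged 53.2 ± 2.84 TPM in Nup210-/- against 77.9 ± 17.2 TPM for Nup210+/+ (SD, n = 4), and the genotypes overlapped on neither scale (limma adjusted p = 0.151). *Cd34* is also carried by fibro-adipogenic and endothelial cells, and the summed level of 6 fibro-adipogenic markers was 688.5 to 770.0 TPM in Nup210-/- and 738.1 to 1368 TPM in Nup210+/+, all 6 with a lower estimate in Nup210-/-. The part of these cells in the *Cd34* difference was not tested. Nup210+/+ replicate 3 held the highest value both of *Cd34* (100.15 TPM) and of the summed fibro-adipogenic markers (1368 TPM). *Sdc4* (−0.36), named after its values were seen, completes the 5, and its genotypes overlapped in scaled but not in deposited TPM.

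Of 20 partners, inhibitors and upstream regulators of the myogenic factors, 19 were tested, with 8 higher and 11 lower estimates (5 and 14 with TPM as deposited) and a median of −0.04. Over all genes tested the median was −0.01, and −0.08 with TPM as deposited. The highest estimate was that of *Six2*, a homeobox gene, which lay between 3.44 and 5.55 TPM in Nup210-/- and between 1.75 and 3.32 TPM in Nup210+/+, without overlap, with a log2 fold change of 0.64 (SE 0.170; limma, adjusted p = 0.170). *Eya4*, a transcriptional cofactor, followed at 0.31 (limma adjusted p = 0.183). In deposited TPM, 2 of the 19 genes were without overlap and higher in Nup210-/-, as were 1.54% of all genes tested. The lowest estimates were in *Id2*, an inhibitor that binds E proteins (−0.32, limma adjusted p = 0.299), and *Snai2*, a repressor at E-boxes (−0.23). The E proteins themselves, *Tcf3*, *Tcf4* and *Tcf12*, named after their values were seen, had log2 fold changes of −0.12, −0.15 and 0.06, and *Tcf12* changed sign with the scaling.

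Of 24 genes of the Notch pathway, 21 were tested, with 6 higher and 15 lower estimates and a median of −0.04. The receptor *Notch4*, best known from endothelium, had the highest estimate (0.49, limma adjusted p = 0.227), at 2.73 to 4.34 TPM in Nup210-/- and 1.89 to 3.20 TPM in Nup210+/+. *Mib1*, which primes the ligands, followed at 0.28. The ligand *Jag1* (−0.22) and the target *Nrarp* (−0.20) were lowest, and both overlapped between genotypes. So the targets *Hey1* and *Heyl* had positive estimates, and *Nrarp* and *Hes1* (−0.18, named after its values were seen) negative ones, all with limma adjusted p of at least 0.622. *Hes1* was at 25.52 TPM in Nup210+/+ replicate 2, the library with the granulocyte precursor genes, and at 13.1 to 16.83 TPM in the others. *Hes5*, under the minimum level and named after its values were seen, is listed at 0 in 3 Nup210-/- libraries and at 0.16 TPM in the other, and was at 0.09, 0.39, 0.37 and 0.34 TPM in Nup210+/+. The exact permutation test on TPM gave p = 0.0571 for it (adjusted over all genes above 0, p = 0.589). *Hey2* and *Maml3*, also under the minimum and named after their values were seen, averaged 0.15 and 0.44 TPM in Nup210-/- against 0.25 and 0.48 TPM for Nup210+/+.

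Of 16 genes of myoblast fusion, cell cycle exit and the immature fiber, 13 were tested, with 8 higher and 5 lower estimates and a median of 0.11. The 3 genes not tested and *Myh3* were named after their values were seen. The fusion proteins myomaker and myomixer are carried in the table under older symbols, and both were under the minimum, with means of 0.240 and 0.305 TPM in Nup210-/- and 0.188 and 0.175 TPM in Nup210+/+. The fetal acetylcholine receptor subunit *Chrng*, which is at 0 in 3 of the 8 libraries and at most 0.28 TPM, was also under it. *Myh3*, the embryonic myosin, averaged 0.625 TPM in Nup210-/- against 0.675 TPM for Nup210+/+, a log2 fold change of 0.00 whose sign changed with the scaling. The cell cycle inhibitor *Cdkn1a* had the highest estimate (0.49, from 14.6 ± 2.02 to 19.6 ± 3.47 TPM, SD, n = 4; limma adjusted p = 0.189), with overlap, and *Ncam1* (0.33) followed. *Myl4* (−0.22) and *Actc1* (−0.20), of the fetal contractile apparatus, were lowest. *Actc1* was at 379.9 TPM in Nup210+/+ replicate 4, the library in which *Myod1* was highest, against 188.5 to 249 TPM in the other 7.

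**Figure D5:**
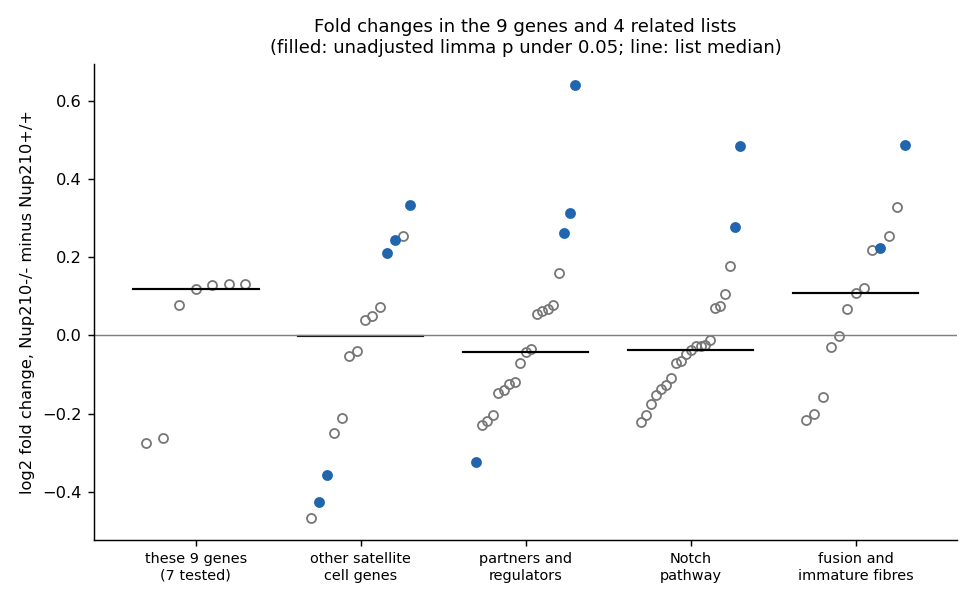
Log2 fold change (Nup210-/- minus Nup210+/+, vertical axis) of each gene tested, among the 7 tested of the 9 genes and in the 4 related lists. Filled points had an unadjusted limma p under 0.05, and horizontal lines are medians. None passed an adjusted p of 0.05, and the medians lie between −0.04 and 0.12.

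The genes whose pattern over the 8 libraries was most like that of a member were found by Pearson's r of log2 scaled TPM over all 14229 genes tested, as a description. For *Pax7* they were *Adprh* (0.95), *Ncbp3* (0.95) and *Cyb5d2* (0.94), for *Myog* they were *Arfgap3* (0.98), *Adnp* (0.97) and *Usp21* (0.95), and for *Myf6* they were *Srr* (0.98), *Tom1l2* (0.97) and *Tspan12* (0.96). With 8 libraries and this many genes, high values arise easily: 8, 21 and 34 genes had r above 0.9. Among the members themselves, *Pax7* went with *Myf5* (r = 0.63, n = 8) and against *Myod1* (r = −0.76, n = 8), and *Myog* went with *Myod1* (r = 0.68, n = 8).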

How the data were processed

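RNA-seq of quadriceps was analysed from 8 libraries, 4 per genotype as labelled, each from a separate mouse. From polyadenylated RNA in directional libraries, the authors trimmed reads with cutadapt 2.3, aligned them to mm10 with STAR 2.7.0d and estimated expression with RSEM 1.3.1 (tool versions from the submitters' processing notes), and deposited TPM per gene and library, rounded to 2 decimals. TPM hold no depth, so counting error is unknown and precision rests on the spread between mice. RSEM estimates are relative to each library's total of 1000000.

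TPM were scaled by the median of ratios over the 15225 genes above 0 in all libraries. Genes averaging 0.5 TPM or more were fitted with limma 3.58.1 in R 4.3.3 on log2(scaled TPM + 1), with an intensity trend and genotype as the only term, with Benjamini-Hochberg adjustment and a threshold of 0.05. Two-sided exact permutation tests for single genes ran over 70 labelings (smallest p 0.0286). The fit was tested on simulated data. Named genes were the 9 members, *Nup210*, the 2 highest and 2 lowest estimates of each related list, any list gene past the threshold, and the 3 genes most like *Pax7*, *Myog* and *Myf6*. Genes named outside this rule are marked as named after their values were seen, apart from the markers of other cell types. The members and lists were chosen with earlier results of these data known. Coordinates are from GENCODE M21 (GRCm38). No exon of the 9 genes overlapped one of another gene. Promoters are from RefSeq on GRCm38.p6. Figures were drawn with matplotlib 3.10.9. The study's counts and DESeq2 test were not used here.

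Alternatives covered the pseudocount (0.1, 0.5), the filter (no filter, or a mean TPM of 0.1 or 1), TPM as deposited, upper-quartile scaling, rescaling without mitochondrial genes and the 20 highest genes, eBayes without trend or robust, library weights, the replicate number as a block, and each library left out.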

Additional observations from a re-analysis of the deposited data

Results flagged for a closer look

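In the 18 groups of 4 libraries formed by the 9 genes and both genotypes, 1 library lay farther from the nearest of the others than chance gives in 1 of 20 such groups, where 0.9 groups would be expected. It was *Hey1* in Nup210-/- replicate 4, which read 1.57 TPM where replicates 1 to 3 read 1.83 to 1.88 TPM, a gap of 0.839 of the range.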

How the results depend on the processing

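None of the 9 genes, and no gene of the 4 related lists, passed an adjusted p of 0.05 in any of the 20 alternatives of the limma fit, and the log2 fold changes of the 7 genes tested kept their sign in all of them in which they were fitted. The lowest adjusted p was 0.245, for *Myod1* and for *Myog* without Nup210+/+ replicate 3. The background moved more. Of all genes, 16 passed in the main fit, 1 without a filter, 0 at a mean TPM of 0.1, 27 at a mean TPM of 1, 0 with upper-quartile scaling, 10 after rescaling without the mitochondrial and 20 highest genes, 0 without trend, 84 with library weights, 0 with the replicate number as a block, and 0 to 10 with 1 library left out. The causes were not tested. The replicate numbers name different mice, and deviations of same-numbered libraries correlated at −0.03 to 0.09, so they give no pairing. The block changed no call among the 9 genes. The difference of mean TPM changed sign with 1 library left out for *Pax7* (−0.0258 to 0.151, negative without replicate 4 of either genotype), *Myf5* (−0.0292 to 0.188, negative without Nup210-/- replicate 4) and *Myf6* (−0.411 to 5.90 TPM, negative without Nup210-/- replicate 3 or Nup210+/+ replicate 4). The exact permutation test of *Calcr* gave p = 0.0286 without Nup210+/+ replicate 4, the library that made the overlap, and this adds no support. With the other libraries left out in turn, the exact permutation p was 0.0571 to 0.0857.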
